A study of Mus musculus with 16 samples.

Results

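The 10 genes described here encode precursors of neuropeptides that neurons of the forebrain use as signals: Sst, Cort, Npy, Vip, Penk, Pdyn, Tac1, Cck, Crh and Grp. They are the rows of the deposited count table whose Ensembl gene IDs carry these symbols, 10 of the 55335 genes in the table, and all 10 were among the 19479 genes kept for testing. RNA was sequenced after removal of ribosomal RNA from mouse primary forebrain neurons cultured from perinatal animals and transduced with lentivirus, in 4 groups of 4 libraries. The first group received a short hairpin RNA (the unmutated hairpin, labelled shRNA), the second the hairpin with 2 point mutations (the 2-mutation hairpin, shRNA_2bp), the third the hairpin with 5 point mutations (the 5-mutation hairpin, shRNA_5bp) and the last an empty vector (Empty_Vector). All groups, the empty vector included, carried a lentiviral vector. The labels give no strain, age in days, promoter or time after transduction, and they do not name the transcript the hairpin was made against. Separate cultures are not stated for the libraries within a group, so p-values reflect only the spread among these libraries, which may be technical.

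Neuropeptides are cut from larger precursor proteins, packed into dense core vesicles and released to act on G-protein-coupled receptors, often alongside a fast transmitter such as GABA or glutamate. In the forebrain, somatostatin, neuropeptide Y, vasoactive intestinal peptide and cholecystokinin are made by GABA-releasing interneurons. Cholecystokinin and gastrin-releasing peptide are made by excitatory neurons as well. The opioid precursors and the tachykinin precursor are best known from projection neurons of the striatum, where enkephalin goes with one output pathway and dynorphin and substance P with the other. Many of these genes respond to neuronal activity through cAMP and the transcription factor CREB, and the somatostatin promoter is the textbook case of a cAMP response element.

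The promoter stretches below show where that element, or its core, lies in these genes. Promoter windows from RefSeq (GRCm38.p6, 250 bases before to 50 after a start) were matched for 7 of the 10 genes by symbol. Penk, Crh and Grp had no window and were not searched. The full element TGACGTCA was searched on both strands, and it was found in the Sst window and in 588 of all 32851 windows (1.79%). Its 5-base core TGACG, which reads CGTCA on the other strand and which the full element holds once on each strand, was found in 5 of the 7 genes and in 6837 of all windows (20.8%). Npy and Pdyn, each with its window or windows searched, held neither form. Capitals mark the element in Sst and the core in the others, and each stretch of 40 bases is written 5′ to 3′ on the strand of the gene. The Tac1 window holds the core at 2 places, and only the place nearer the start is shown. The other place lies between bases 7554847 and 7554886 of chromosome 6. A match says only that the letters are present.
Sst, chr16:23890870-23890909, minus strand: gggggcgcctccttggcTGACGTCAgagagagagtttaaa
Vip, chr10:5639122-5639161, plus strand: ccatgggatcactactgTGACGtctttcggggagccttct
Tac1, chr6:7555001-7555040, plus strand: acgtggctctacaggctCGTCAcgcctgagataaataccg
Cck, chr9:121495719-121495758, minus strand: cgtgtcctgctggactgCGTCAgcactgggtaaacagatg
Cort, chr4:149126759-149126798, minus strand: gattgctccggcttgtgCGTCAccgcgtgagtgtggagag

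Sst and Cort are related in sequence, and the difference between their counts matters below, so the ends of their coding sequences are shown too. A stretch of 45 bases near the end of each coding sequence, which holds the cyclic part of the peptide, is compared in GENCODE vM21 transcripts, followed by 3 bases in Sst (chromosome 16) and 6 bases in Cort (chromosome 4) up to the end of the stop codon. Capitals mark the 34 identical bases (75.6%), which include a run of 21.
Sst coding end: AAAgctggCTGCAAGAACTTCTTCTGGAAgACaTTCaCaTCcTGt
Cort coding end: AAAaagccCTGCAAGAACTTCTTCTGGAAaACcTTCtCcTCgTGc

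Total counts ran from 33795369 to 49824569 per library. Levels are given as CPM, counts scaled to a common library size with TMM factors, and a gene is called changed at a Benjamini-Hochberg adjusted p below 0.05 in edgeR's quasi-likelihood test over all 19479 genes. Rtn4 was named for its fall with the unmutated hairpin. It was at 29.9 to 31.3 CPM with that hairpin and 837 to 891 CPM with the empty vector. With the 2-mutation hairpin Rtn4 was at 122 to 130.3 CPM and with the 5-mutation hairpin at 773 to 856 CPM. Pan-neuronal markers were present throughout, with summed levels of 5948 to 6133, 6239 to 6543, 6964 to 7192 and 6709 to 6994 CPM in the unmutated, 2-mutation, 5-mutation and empty-vector libraries. Of 10 pan-neuronal genes 7 were called lower with the unmutated hairpin, 5 lower and 3 higher with the 2-mutation hairpin and 3 lower and 2 higher with the 5-mutation hairpin. Of 14 excitatory neuron markers, 4, 4 and 9 were called lower and 5, 7 and 1 higher with the 3 hairpins in that order. Astrocyte markers were present (summed 519 to 1157 CPM over all libraries), with 2, 6 and 3 of 10 called lower and none higher. Oligodendrocyte lineage markers summed to 51.9 to 111 CPM, with 4, 1 and 2 of 7 tested called higher and 0, 2 and 2 lower. Microglia markers were close to absent (0.888 to 3.73 CPM summed; 2 of 10 tested, of which 1, 2 and 1 were called lower), and endothelial and mural markers were low (4.72 to 16.4 CPM summed; 7 of 10 tested, with 0, 0 and 2 called higher and 2, 1 and 2 lower). Some of these small counts moved when 1 library was left out: microglia lower with the unmutated hairpin became 0 without empty-vector replicate 2 or unmutated replicate 1, 2 or 3, endothelial and mural higher with the 5-mutation hairpin became 0 or 1 without any one empty-vector replicate or 5-mutation replicate 3 or 4 and lower with the 2-mutation hairpin became 2 without empty-vector replicate 1, excitatory higher with the 5-mutation hairpin became 2 without 5-mutation replicate 2, and pan-neuronal higher with the unmutated hairpin became 1 without empty-vector replicate 4. Beside these counts, 40.3%, 63.3% and 54.9% of all genes tested were called in either direction with the 3 hairpins. In these bulk samples, fewer cells of a type and less RNA per cell cannot be told apart.

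The neuropeptide genes called, and their directions, differed between the hairpins. With the unmutated hairpin, 5 of the 10 genes were lower than with the empty vector (Sst, Cort, Npy, Tac1 and Cck) and 2 higher (Penk and Crh). With the 2-mutation hairpin, 7 were lower (Sst, Cort, Npy, Pdyn, Tac1, Crh and Grp) and 1 higher (Cck). With the 5-mutation hairpin, 3 were lower (Npy, Pdyn and Cck) and 2 higher (Cort and Tac1). Of all genes tested, 40.3% were called with the unmutated hairpin (20.8% higher and 19.5% lower), 63.3% with the 2-mutation hairpin (32.5% higher and 30.8% lower) and 54.9% with the 5-mutation hairpin (28.4% higher and 26.5% lower). The share of the 10 genes called with the 5-mutation hairpin was near that of all genes. With library totals in place of TMM scaling, 63.9% of the calls with the unmutated hairpin were higher, against 51.6% with TMM. The median log2 fold change of the 10 genes was −0.45, −1.91 and −0.04 with the 3 hairpins, beside 0.01, −0.01 and 0.03 over all genes tested. Their median size of change without regard to sign was 0.72, 1.91 and 0.69, beside 0.23, 0.42 and 0.32. These 3 comparisons share the empty-vector libraries. The count of 2 higher with the unmutated hairpin was 1 without any one of empty-vector replicates 1, 3 and 4, unmutated replicate 2, 2-mutation replicates 3 and 4 or 5-mutation replicates 1 and 4 and 0 without unmutated replicate 3, and the count of 2 higher with the 5-mutation hairpin was 4 without 5-mutation replicate 2.

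**Figure D1:**
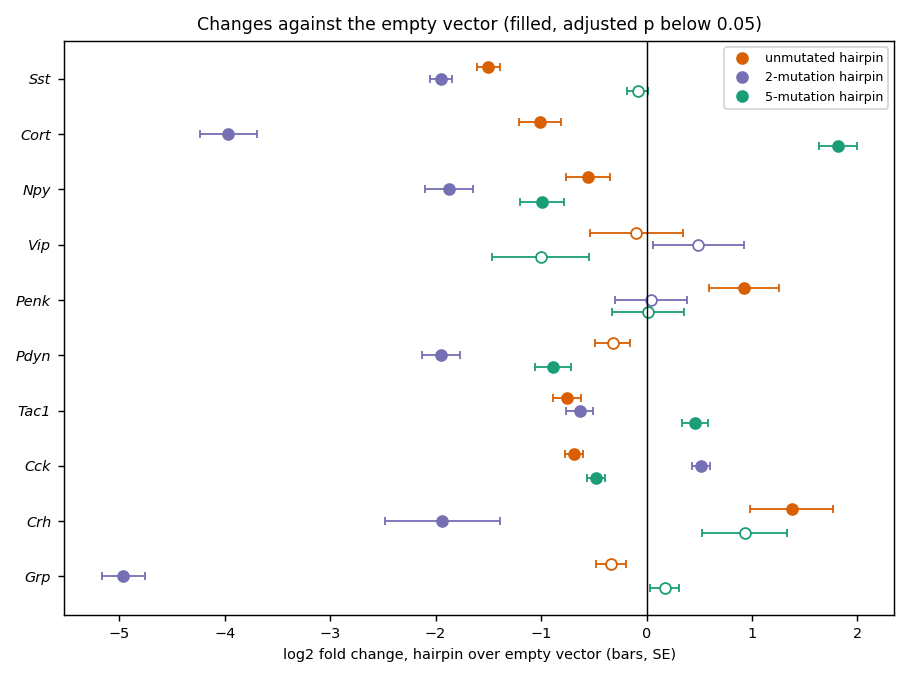
Log2 fold change of each neuropeptide gene against the empty vector (points; bars, standard error from edgeR's quasi-likelihood fit, 4 libraries a group) for the unmutated, 2-mutation and 5-mutation hairpins, with filled points called at an adjusted p below 0.05. Grp lies at −4.96 with the 2-mutation hairpin and within 0.34 of 0 with the other hairpins, and Cort lies at −3.97 for the 2-mutation hairpin and 1.81 for the 5-mutation hairpin.

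Sst, which encodes somatostatin, an inhibitory peptide of a large class of interneurons, was lower with the unmutated and the 2-mutation hairpins and not with the 5-mutation hairpin. The gene (ENSMUSG00000004366.4; GRCm38 chromosome 16, 23889573 to 23890958, minus strand) was at 20.4, 25.8, 30.8 and 19.9 CPM in the unmutated-hairpin libraries and 16.3, 17.3, 19.9 and 17.6 CPM in the 2-mutation libraries. It was at 64.8, 63.6, 69.2 and 61.1 CPM in the 5-mutation libraries and 72.0, 65.6, 66.5 and 70.2 CPM in the empty-vector libraries. All libraries of the first pair of groups lay below all libraries of the second pair, and within each pair the groups overlapped. Against the empty vector the log2 fold change was −1.5 ± 0.11 (SE; edgeR adjusted p = 8.75e-09) with the unmutated hairpin, a 2.83-fold lower level, and −1.95 ± 0.11 (adjusted p = 7.89e-11) with the 2-mutation hairpin, a 3.86-fold lower level. With the 5-mutation hairpin it was −0.08 ± 0.10 (adjusted p = 0.509), which did not pass the test. The unmutated hairpin lay above the 2-mutation hairpin by 0.45 (adjusted p = 0.00191).

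Cort, which encodes cortistatin, a relative of somatostatin that binds the same receptors, moved in opposite directions with the mutated hairpins. It (ENSMUSG00000028971.4; chromosome 4, 149125034 to 149126763, minus strand) was at 1.21, 1.59, 1.92 and 1.36 CPM with the unmutated hairpin and at 0.107, 0.248, 0.259 and 0.172 CPM with the 2-mutation hairpin. It was at 11.4, 9.20, 12.5 and 10.1 CPM with the 5-mutation hairpin and at 4.59, 2.50, 2.78 and 2.45 CPM with the empty vector. None of the 4 groups overlapped another, and the order was 5-mutation, empty vector, unmutated, 2-mutation. The log2 fold change against the empty vector was −1.01 ± 0.20 (adjusted p = 0.000366) with the unmutated, −3.97 ± 0.27 (adjusted p = 4.18e-11) with the 2-mutation and 1.81 ± 0.18 (adjusted p = 2.18e-08) with the 5-mutation hairpin. The 2-mutation hairpin lay below the 5-mutation hairpin by a log2 difference of −5.78 (adjusted p = 1.82e-14), which in mean levels was 0.196 ± 0.0712 against 10.8 ± 1.47 CPM (SD, n = 4 each). With the 5-mutation hairpin Cort was 3.52-fold higher than with the empty vector, in the libraries where the test found no difference in Sst. Whether reads of the identical run were shared between the genes was not tested.

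Npy, which encodes neuropeptide Y, a peptide of interneurons that lowers transmitter release, was lower with each hairpin. It (ENSMUSG00000029819.6; chromosome 6, 49822710 to 49829507, plus strand) was at 4.42, 8.56, 5.10 and 4.24 CPM with the unmutated, 2.22, 2.61, 2.21 and 1.95 CPM with the 2-mutation, 4.40, 5.2, 4.31 and 2.57 CPM with the 5-mutation hairpin and 8.99, 9.20, 7.29 and 7.51 CPM with the empty vector. The 2-mutation and 5-mutation libraries all lay below the empty-vector libraries, while replicate 2 of the unmutated hairpin lay among them. The log2 fold change was −1.87 ± 0.22 (adjusted p = 9.49e-07) with the 2-mutation and −0.99 ± 0.21 (adjusted p = 0.000685) with the 5-mutation hairpin. With the unmutated hairpin it was −0.56 ± 0.21 (adjusted p = 0.0424). That call was close to the threshold: without replicate 2 of the unmutated hairpin the log2 fold change was −0.84 (adjusted p = 0.000479), whereas it was lost (adjusted p 0.0502 to 0.125) without any one of unmutated replicates 1, 3 and 4, empty-vector replicates 1, 2 and 4, 2-mutation replicates 1, 3 and 4 or 5-mutation replicates 1 and 3. The unmutated and 5-mutation hairpins did not pass the test against each other (0.43, adjusted p = 0.0985), although they did without unmutated replicate 4 (adjusted p = 0.0474) or 5-mutation replicate 2 (adjusted p = 0.0498), over a range of 0.00344 to 0.496 in all alternatives.

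Vip, which encodes vasoactive intestinal peptide, made by interneurons that mainly contact other interneurons, spread widely between libraries of a group. It (ENSMUSG00000019772.5; chromosome 10, 5639218 to 5647617, plus strand) was at 2.48, 9.26, 5.87 and 5.98 CPM with the unmutated, 5.03, 13.1, 8.0 and 9.62 CPM with the 2-mutation, 1.20, 5.26, 2.53 and 3.54 CPM with the 5-mutation hairpin and 4.56, 8.52, 6.16 and 6.14 CPM with the empty vector. Replicate 1 was the lowest and replicate 2 the highest in every group, and the groups overlapped. No hairpin passed the test against the empty vector (log2 fold changes −0.10 ± 0.44, 0.49 ± 0.43 and −1.0 ± 0.46, adjusted p = 0.890, 0.342 and 0.0839 for the unmutated, 2-mutation and 5-mutation hairpins). These tests did not use the replicate numbers, and the labels do not say what a number marks. With the numbers fitted as a block in edgeR, Vip was called higher with the 2-mutation hairpin (0.46, adjusted p = 0.00478). In that fit it was lower with the 5-mutation hairpin (−1.10, adjusted p = 1.79e-06). Over all alternatives the adjusted p with the 2-mutation hairpin ran from 7.05e-05 to 0.654. The 2-mutation hairpin lay above the 5-mutation hairpin by 1.5 (adjusted p = 0.0105). Without 5-mutation replicate 2, the 5-mutation hairpin was called lower than the empty vector (−1.40, adjusted p = 0.0307) and lower than the unmutated hairpin (adjusted p = 0.0431). The call against the unmutated hairpin was also made without unmutated replicate 1 (adjusted p = 0.0420), and over all alternatives these adjusted p ran from 1.5e-15 to 0.195 against the empty vector and from 8.91e-13 to 0.326 against the unmutated hairpin.

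Penk, the precursor of the enkephalins, rose with the unmutated hairpin and did not pass the test with either mutated hairpin. The gene (ENSMUSG00000045573.9; chromosome 4, 4133531 to 4138819, minus strand) was at 20.9, 28.6, 32.6 and 21.1 CPM with the unmutated and 9.05, 24.2, 11.3 and 11.9 CPM with the 2-mutation hairpin. It was at 11.2, 20.6, 11.1 and 11.6 CPM with the 5-mutation hairpin and 11.8, 20.5, 11 and 11.5 CPM with the empty vector. In the last 3 groups replicate 2 stood above the other libraries. The unmutated libraries lay above all 5-mutation and empty-vector libraries and overlapped the 2-mutation hairpin through its replicate 2. The log2 fold change was 0.92 ± 0.33 (adjusted p = 0.0428) with the unmutated, 0.05 ± 0.34 (adjusted p = 0.917) with the 2-mutation and 0.01 ± 0.34 (adjusted p = 0.980) with the 5-mutation hairpin. The call was lost (adjusted p 0.0507 to 0.110) without any one of empty-vector replicates 1, 3 and 4, unmutated replicates 2 and 3, 2-mutation replicates 3 and 4 or 5-mutation replicates 1 and 4, while without replicate 2 of every group, an alternative chosen after seeing the data, the log2 fold change was 1.13 (adjusted p = 8.04e-05). Over all alternatives the adjusted p ran from 2.03e-32 to 0.110. The unmutated hairpin also lay above the 2-mutation (0.88, adjusted p = 0.0340) and the 5-mutation hairpin (0.91, adjusted p = 0.0329). These calls were lost without unmutated replicate 2 or 3, and without 2-mutation replicate 1, 3 or 4 (adjusted p 0.0726 to 0.0963 against the 2-mutation hairpin) or 5-mutation replicate 1, 3 or 4 (adjusted p 0.0710 to 0.0877 against the 5-mutation hairpin). A transcript of A830012C17Rik on the opposite strand shares 233 exonic bases with Penk, but it had only 42 counts over all libraries, against 2075 to 4108 counts of Penk in a group.

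Pdyn, the precursor of the dynorphins, which act mainly on the kappa opioid receptor, was lower with both mutated hairpins. It (ENSMUSG00000027400.11; chromosome 2, 129686565 to 129699844, minus strand) was at 2.88, 3.04, 3.89 and 2.95 CPM with the unmutated, 1.09, 1.17, 0.917 and 0.966 CPM with the 2-mutation, 2.7, 2.28, 1.5 and 2.09 CPM with the 5-mutation hairpin and 3.85, 5.00, 4.02 and 3.14 CPM with the empty vector. The 2-mutation libraries lay below all others and the 5-mutation libraries below the unmutated and empty-vector libraries, which overlapped. Against the empty vector the log2 fold change was −0.32 ± 0.16 (adjusted p = 0.128) with the unmutated, −1.95 ± 0.18 (adjusted p = 3.57e-09) with the 2-mutation and −0.89 ± 0.17 (adjusted p = 0.000111) with the 5-mutation hairpin.

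Tac1, which encodes substance P and neurokinin A, was lower with the unmutated and 2-mutation hairpins and higher with the 5-mutation hairpin. It (ENSMUSG00000061762.12; chromosome 6, 7554879 to 7565834, plus strand) was at 3.42, 5.10, 4.84 and 3.33 CPM with the unmutated, 4.25, 4.19, 4.14 and 5.61 CPM with the 2-mutation, 10.6, 10.3, 8.76 and 9.02 CPM with the 5-mutation hairpin and 6.80, 7.68, 7.09 and 6.72 CPM with the empty vector. Each hairpin group lay apart from the empty vector, and the unmutated and 2-mutation groups overlapped. In the fit the log2 fold change was −0.76 ± 0.13 (adjusted p = 7.57e-05), −0.63 ± 0.13 (adjusted p = 0.000197) and 0.46 ± 0.12 (adjusted p = 0.00354) with the unmutated, 2-mutation and 5-mutation hairpins. Like Sst and Cort, Tac1 lay lower with the unmutated than with the 5-mutation hairpin, by a log2 difference of −1.21 (adjusted p = 4.52e-08), while the unmutated and 2-mutation hairpins did not pass the test against each other (−0.12, adjusted p = 0.445).

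Cck, which encodes cholecystokinin, a peptide of both interneurons and excitatory neurons, was the 1 member that rose with the 2-mutation hairpin. It (ENSMUSG00000032532.7; chromosome 9, 121489824 to 121495694, minus strand) was at 74.5, 71.2, 80.4 and 68.0 CPM with the unmutated hairpin and 179.8, 172, 158 and 169 CPM with the 2-mutation hairpin. It was at 90.0, 69.5, 96.8 and 83.7 CPM with the 5-mutation hairpin and 115, 135, 111 and 114 CPM with the empty vector. The 2-mutation libraries lay above the empty-vector libraries, and those above the overlapping unmutated and 5-mutation libraries. The log2 fold change was −0.69 ± 0.09 (adjusted p = 4.84e-06) with the unmutated, 0.52 ± 0.08 (adjusted p = 3.89e-05) with the 2-mutation and −0.48 ± 0.09 (adjusted p = 0.000114) with the 5-mutation hairpin. The unmutated and 5-mutation hairpins differed by −0.21 (adjusted p = 0.0501), and this was called without 5-mutation replicate 2 (adjusted p = 0.0012), unmutated replicate 3 (adjusted p = 0.0289) or empty-vector replicate 2 (adjusted p = 0.0301), over a range of 0.000158 to 0.164 in all alternatives.

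Crh, which encodes corticotropin-releasing hormone, the stress peptide that some cortical interneurons also make, was the rarest of the 10 and was higher with the unmutated and lower with the 2-mutation hairpin. It (ENSMUSG00000049796.4; chromosome 3, 19693401 to 19695396, minus strand) had 24, 31, 55 and 20 counts in the unmutated, 2, 9, 0 and 3 in the 2-mutation, 31, 25, 25 and 22 in the 5-mutation and 12, 8, 14 and 15 in the empty-vector libraries. As levels these were 0.647, 0.725, 1.41 and 0.505 CPM with the unmutated, 0.0427, 0.223, 0 and 0.0644 CPM with the 2-mutation, 0.676, 0.490, 0.695 and 0.561 CPM with the 5-mutation hairpin and 0.344, 0.238, 0.309 and 0.360 CPM with the empty vector. The 2-mutation libraries lay below all others and the unmutated and 5-mutation libraries above the empty-vector libraries. For Crh the log2 fold change was 1.38 ± 0.39 (adjusted p = 0.00729) with the unmutated, −1.94 ± 0.55 (adjusted p = 0.00396) with the 2-mutation and 0.93 ± 0.40 (adjusted p = 0.0550) with the 5-mutation hairpin. Leaving out unmutated replicate 3 ended the call for that hairpin (0.99, adjusted p = 0.0524, with a range of 0.000208 to 0.0524 over all alternatives), and leaving out 2-mutation replicate 2 moved the 2-mutation value to −3.0. The 5-mutation hairpin was called higher without unmutated replicate 3, 2-mutation replicate 2 or 3 or 5-mutation replicate 2 (adjusted p 0.0277 to 0.0445), over a range of 0.00848 to 0.124 in all alternatives. With 14 counts in the 2-mutation group, its level is loosely set.

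Grp, which encodes gastrin-releasing peptide, had the greatest change against the empty vector among the 10 genes, with the 2-mutation hairpin. It (ENSMUSG00000024517.17; chromosome 18, 65872820 to 65886596, plus strand) was at 10.1, 7.95, 9.45 and 7.49 CPM with the unmutated hairpin and at 0.341, 0.42, 0.212 and 0.430 CPM with the 2-mutation hairpin. It was at 13.9, 8.61, 13.4 and 14 CPM with the 5-mutation hairpin and at 12.5, 11, 10.9 and 9.88 CPM with the empty vector. The 2-mutation libraries, with 62 counts in all against 1709 with the empty vector, lay far below the other groups, which overlapped. The log2 fold change was −4.96 ± 0.21 (adjusted p = 7.32e-14) with the 2-mutation hairpin, −0.34 ± 0.14 (adjusted p = 0.0617) with the unmutated and 0.17 ± 0.14 (adjusted p = 0.305) with the 5-mutation hairpin. Without 5-mutation replicate 2 the unmutated hairpin was called lower (adjusted p = 0.00812) and the 5-mutation hairpin higher (0.32, adjusted p = 0.0119), and the unmutated hairpin was called lower also without its own replicate 1 (adjusted p = 0.0362), over ranges of 0.00408 to 0.172 and 0.0119 to 0.557 in all alternatives. The antisense gene AC152076.4 shares no exonic base with Grp.

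**Figure D2:**
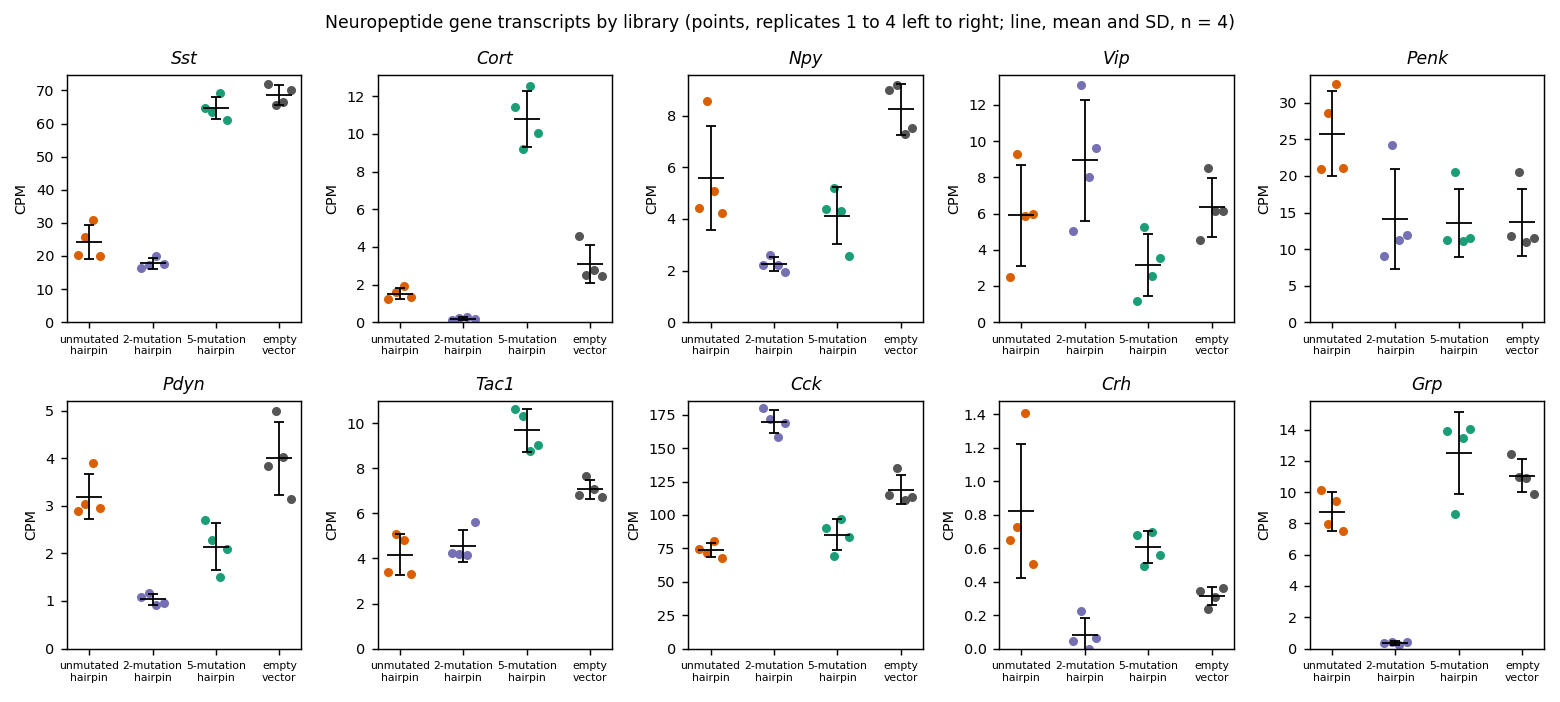
Level of each neuropeptide gene in each library (points, in CPM; replicates 1 to 4 run left to right within a group; the line and bar give the mean and SD, n = 4) for the unmutated, 2-mutation and 5-mutation hairpins and the empty vector. Sst is low in the first pair of groups (16.3 to 30.8 CPM) and high in the second (61.1 to 72.0 CPM), Grp and Cort are nearly absent with the 2-mutation hairpin, and replicate 2 stands high in Vip and, in 3 groups, in Penk.

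The hairpins were also compared with each other, since mutated hairpins are commonly used as controls for an unmutated one. Between the unmutated and the 2-mutation hairpin 8 of the 10 genes were called (62.7% of all genes tested), with 7 of them higher with the unmutated hairpin: Grp (4.62), Crh (3.31), Cort (2.96), Pdyn (1.62), Npy (1.32), Penk (0.88) and Sst (0.45), and Cck lower (−1.21). Between the unmutated and the 5-mutation hairpin 6 were called (55.3% of all genes tested), with Penk (0.91) and Pdyn (0.57) higher and Cort (−2.82), Sst (−1.41), Tac1 (−1.21) and Grp (−0.51) lower with the unmutated hairpin. The share of the 10 genes called there was near that of all genes. Between the 2-mutation and the 5-mutation hairpin 9 were called (65.9% of all genes tested), with Vip (1.5) and Cck (1.0) higher and Cort (−5.78), Grp (−5.13), Crh (−2.87), Sst (−1.86), Tac1 (−1.09), Pdyn (−1.06) and Npy (−0.88) lower with the 2-mutation hairpin. In this last comparison the 1 gene that did not pass was Penk (0.03, adjusted p = 0.937). The count of members higher with the unmutated than with the 5-mutation hairpin rested on single libraries: it was 4 without 5-mutation replicate 2 and 1 without unmutated replicate 2 or 3 or 5-mutation replicate 1, 3 or 4, where Penk lost its call. With library totals in place of TMM scaling the median of all genes shifted by 0.12 between the unmutated and 2-mutation hairpins and by −0.14 between the 2-mutation and 5-mutation hairpins. The share of calls that were higher then became 59.8% in place of 49.7% and 38.5% in place of 49.0%.

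Levels of different genes were compared per kilobase of exon. With the empty vector, Sst (95.1 ± 4.20 CPM per kb; SD, n = 4) and Cck (91.0 ± 8.35) stood above Npy (14.6 ± 1.74), Penk (8.38 ± 2.79), Grp (7.49 ± 0.717), Cort (4.55 ± 1.5), Tac1 (2.08 ± 0.128), Vip (1.87 ± 0.479), Pdyn (1.39 ± 0.266) and Crh (0.237 ± 0.0410). Sst and Cck lay within their spread of each other, as did Penk and Grp, and Tac1 and Vip. The make-up of the peptide transcripts differed between groups. Of the summed level per kb of the 10 genes, Cck took 44.2 ± 4.06% in unmutated, 75.5 ± 3.02% in 2-mutation, 32.5 ± 2.83% in 5-mutation and 40.1 ± 2.01% in empty-vector libraries. Sst took 26.0 ± 2.12%, 14.3 ± 1.75%, 44.9 ± 1.28% and 42.1 ± 2.92% in the same order. Penk took 12.2 ± 1.17% with the unmutated hairpin and 4.96 ± 2.2%, 4.23 ± 1.66% and 3.66 ± 1.03% in the other groups, and Cort took 1.74 ± 0.168%, 0.169 ± 0.0623%, 7.96 ± 0.577% and 2.01 ± 0.639%. Since the shares of a library sum to the whole, a rise of one lowers the others. The summed level of the 10 genes was 128 ± 16.9, 172 ± 7.16, 199.9 ± 13.4 and 227 ± 11.9 CPM per kb, in the same order. Every unmutated and 2-mutation library lay below all empty-vector libraries, and the 5-mutation libraries overlapped them.

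The genes that make and load GABA, the transmitter of the interneurons that also release several of these peptides, fell with each hairpin: of Gad1, Gad2 and Slc32a1, 3 of 3 were called lower each time. Of all genes tested, 19.5%, 30.8% and 26.5% were called lower with the unmutated, 2-mutation and 5-mutation hairpins. Slc32a1 was close to the threshold with the 2-mutation hairpin (edgeR adjusted p = 0.0441). Gad1 and Gad2, the GABA-synthesizing enzymes, had log2 fold changes of −1.44 and −2.16 with the unmutated, −1.78 and −3.32 with the 2-mutation and −0.69 and −2.07 with the 5-mutation hairpin, and Slc32a1, the vesicular GABA transporter, of −1.49, −0.40 and −1.66. To see which peptide genes moved with them, each gene's log2 level in a library was taken relative to the mean log2 level of these 3 genes. Because the GABA genes fell, most genes lay higher on this scale: 94.2% of all tested genes lay higher in every unmutated library than in any empty-vector library and 0.0719% lower, 89.5% and 0.739% with the 2-mutation hairpin, and 88.2% and 0.549% with the 5-mutation hairpin. Of the 10 peptide genes, 8 lay higher without overlap and none lower with the unmutated hairpin, 4 higher and 2 lower with the 2-mutation hairpin and 8 higher and none lower with the 5-mutation hairpin. The median difference of the 10 genes was 1.28, 0.08 and 1.45, beside 1.77, 1.87 and 1.52 over all genes.

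On this scale the difference in Sst was small with the unmutated hairpin, while with the 2-mutation hairpin it depended on which GABA gene was used, since Slc32a1 (−0.40), Gad1 (−1.78) and Gad2 (−3.32) diverged there. Relative to the mean of the 3 genes, the Sst level was −0.94 ± 0.44 with the unmutated and −1.25 ± 0.37 with the 2-mutation hairpin against −1.17 ± 0.14 with the empty vector (log2, SD, n = 4 each), and by a 2-sided exact permutation test neither difference passed (0.24 with p = 0.4 and −0.07 with p = 0.771). With the 5-mutation hairpin it was 0.24 ± 0.33, higher by 1.42 (exact permutation p = 0.0286, the smallest that 70 splits of 4 against 4 libraries allow, and 0.0390 adjusted over the 30 tests of 10 genes and 3 hairpins). The median difference of all genes was 1.52 there and 88.2% lay higher without overlap, so this p does not set Sst apart from other genes. Against the mean of the 3 genes, Npy (0.02), Pdyn (−0.02) and Crh (0.14) also did not pass with the 2-mutation hairpin (exact permutation p = 0.914, 0.971 and 0.8). Grp (−2.96) and Cort (−1.81) fell further than the GABA genes there, and Cck (2.39), Vip (2.32), Penk (1.86) and Tac1 (1.23) lay higher, each at that smallest p. With this hairpin 89.5% of all genes lay higher without overlap and their median was 1.87, so the p of the higher genes does not set them apart. Relative to Slc32a1 alone, the 2-mutation values were −1.53 for Sst, −1.44 for Npy and −1.48 for Pdyn, each called lower (exact permutation, adjusted p = 0.0373), and −1.32 for Crh, which did not pass. Penk (0.40) and Tac1 (−0.23) lost their calls on that scale, whereas Grp and Cort stayed lower and Cck and Vip higher. Relative to Gad1 alone, Sst was −0.15 with the 2-mutation hairpin and did not pass.

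**Figure D3:**
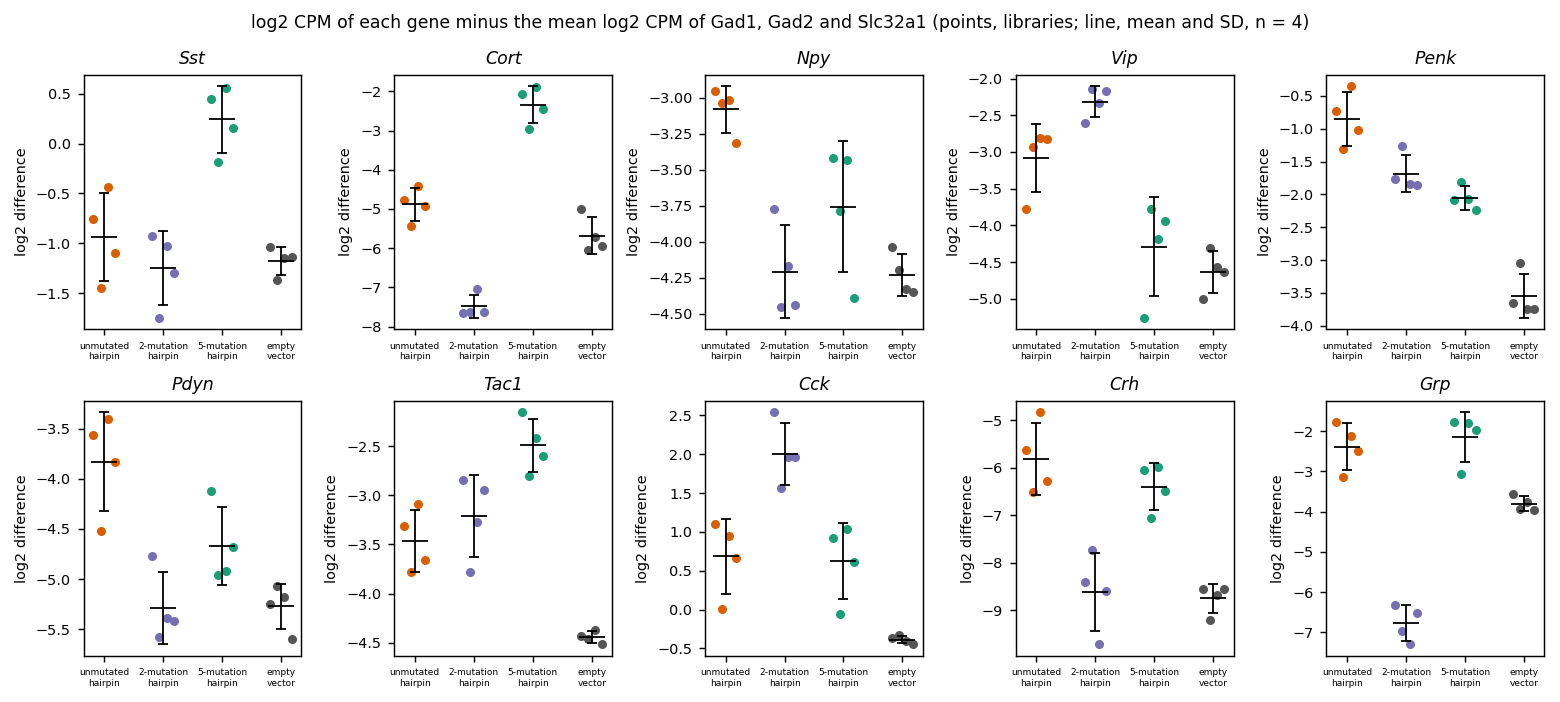
Log2 CPM of each neuropeptide gene minus the mean log2 CPM of Gad1, Gad2 and Slc32a1 in each library (points; line and bar, mean and SD, n = 4) for the 3 hairpins and the empty vector. Sst lies between −1.75 and −0.43 with the unmutated and 2-mutation hairpins, beside −1.37 to −1.04 with the empty vector, and between −0.19 and 0.56 with the 5-mutation hairpin.

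Libraries with the replicate number 2 stood high for some of these genes in every group. Replicate 2 was the highest of its group in all 4 groups for Npy and Vip, for Gad1, Gad2 and Slc32a1 and for 8 of 10 tested markers of striatal projection neurons (among them Ppp1r1b, Drd2, Adora2a, Rgs9, Gpr6, Foxp2 and Meis2), and in 3 of 4 groups for Penk. Over all tested genes, replicate 2 was highest in all 4 groups for 293 (1.5%). The mean deviation of replicate 2 from its group mean was 0.58 on the log2 scale for Penk, 0.70 for Vip, 0.36 for Npy and 0.66 for Gad2, whereas it was −0.0018 for Sst, −0.014 for Cort and −0.029 for Cck. Summed over the striatal list, levels ran from 174 to 305 CPM with the unmutated, 221 to 299 CPM with the 2-mutation and 156 to 238 CPM with the 5-mutation hairpin and from 214 to 308 CPM with the empty vector, with no listed gene at 0 in a whole group. The part of these cells in the levels of Penk and Vip was not tested. Without replicate 2 of every group, chosen after seeing the data, the counts of members called were 2 higher and 5 lower with the unmutated, 1 higher and 7 lower with the 2-mutation and 3 higher and 4 lower with the 5-mutation hairpin.

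**Figure D4:**
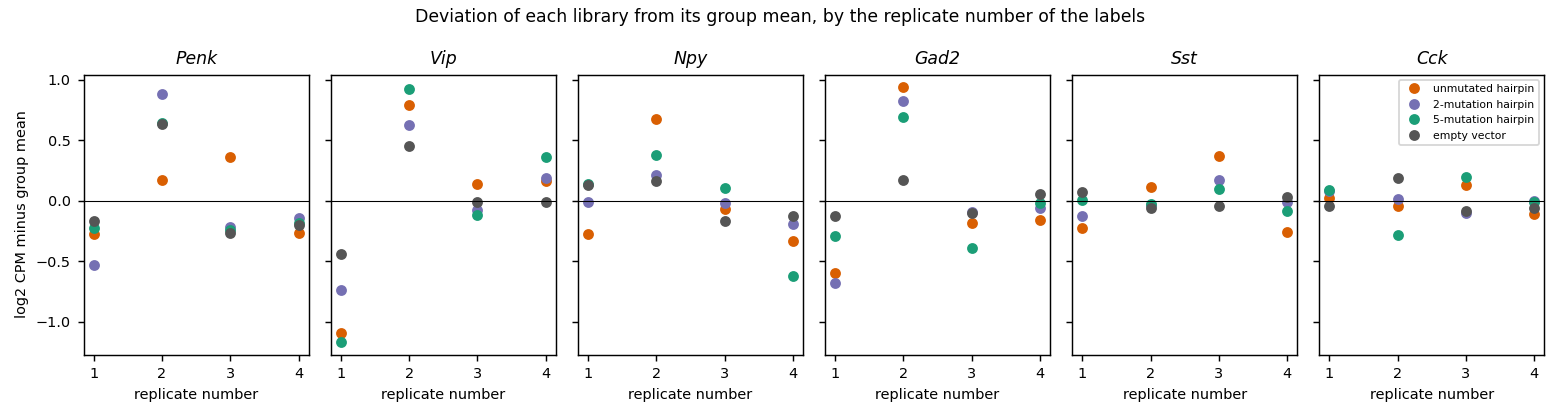
Log2 CPM of each library minus the mean of its group, by the replicate number of the labels (points, 4 groups), for Penk, Vip, Npy, Gad2, Sst and Cck. Replicate 2 lies above the group mean in all groups for Penk, Vip, Npy and Gad2, and replicate 1 lies below it in all groups for Penk, Vip and Gad2.

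Of the 10 tested markers of striatal projection neurons, where Penk is best known, 1 was called higher (Rgs9, a signalling regulator of striatal neurons, 0.47) and 2 lower (Foxp1, −0.58, and the dopamine receptor gene Drd1, −0.42) with the unmutated hairpin, while 7 did not pass. Without replicate 2 of every group these counts were 2 higher and 4 lower. Leaving out single libraries gave 2 higher and 1 lower without empty-vector replicate 2, 1 lower without unmutated replicate 1 or 4 and 4 lower without unmutated replicate 2. With the 2-mutation hairpin 3 were higher, among them Rgs9 (1.62) and Drd1 (0.52), and 3 lower, among them the orphan receptor gene Gpr6 (−2.29). Rgs9 (0.96) was also higher with the 5-mutation hairpin and 6 were lower, among them Foxp1 (−0.39), Drd1 (−0.64) and Gpr6 (−1.75). Of all genes tested, 40.3%, 63.3% and 54.9% were called with the unmutated, 2-mutation and 5-mutation hairpins, and the share of this list called with the 2-mutation hairpin was near that.

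Of 26 genes for prohormone processing and dense core vesicles, all were tested, and 7 were higher and 13 lower with the unmutated, 8 higher and 11 lower with the 2-mutation and 12 higher and 8 lower with the 5-mutation hairpin. The median log2 fold changes were −0.12, −0.06 and 0.12, beside 0.01, −0.01 and 0.03 over all genes tested, of which 40.3%, 63.3% and 54.9% were called. Pcsk2, the convertase that makes the final cuts in many peptide precursors, and its chaperone gene Scg5 were lower with every hairpin (Pcsk2 −0.69, −1.39 and −0.37; Scg5 −0.58, −0.83 and −0.41 with the unmutated, 2-mutation and 5-mutation hairpins). Pam, which amidates the ends of peptides, and the granin gene Scg2 were higher with every hairpin (Pam 0.33, 0.58 and 0.79; Scg2 0.71, 0.60 and 0.81). Pam, Scg2, Vgf, Syt4 and Pcsk1 were picked after their values were seen. The other genes with the smallest p in a comparison were the carboxypeptidase gene Cpd (−1.66) and the granin gene Chgb (−0.71) with the unmutated hairpin, the vesicle membrane protein gene Ptprn2 with the unmutated (−0.58) and 2-mutation (−1.29) hairpins, and Chga (−1.09) and the glutaminyl cyclase gene Qpct (0.68) with the 5-mutation hairpin. Cpd was lower also with the 2-mutation (−0.27) and higher with the 5-mutation hairpin (0.34). Chgb was higher with the 2-mutation hairpin (0.12), and Ptprn2 lower with the 5-mutation hairpin (−0.18). Chga was lower with the unmutated (−0.35) and higher with the 2-mutation hairpin (0.33). Vgf, a granin-like precursor gene, was higher with the unmutated (0.75) and 5-mutation (1.03) hairpins and lower with the 2-mutation hairpin (−1.0). Syt4, a synaptotagmin gene, was lower with the 2-mutation (−1.40) and higher with the 5-mutation hairpin (0.79), and the convertase gene Pcsk1 rose with the unmutated (1.18) and 5-mutation (1.97) hairpins.

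**Figure D5:**
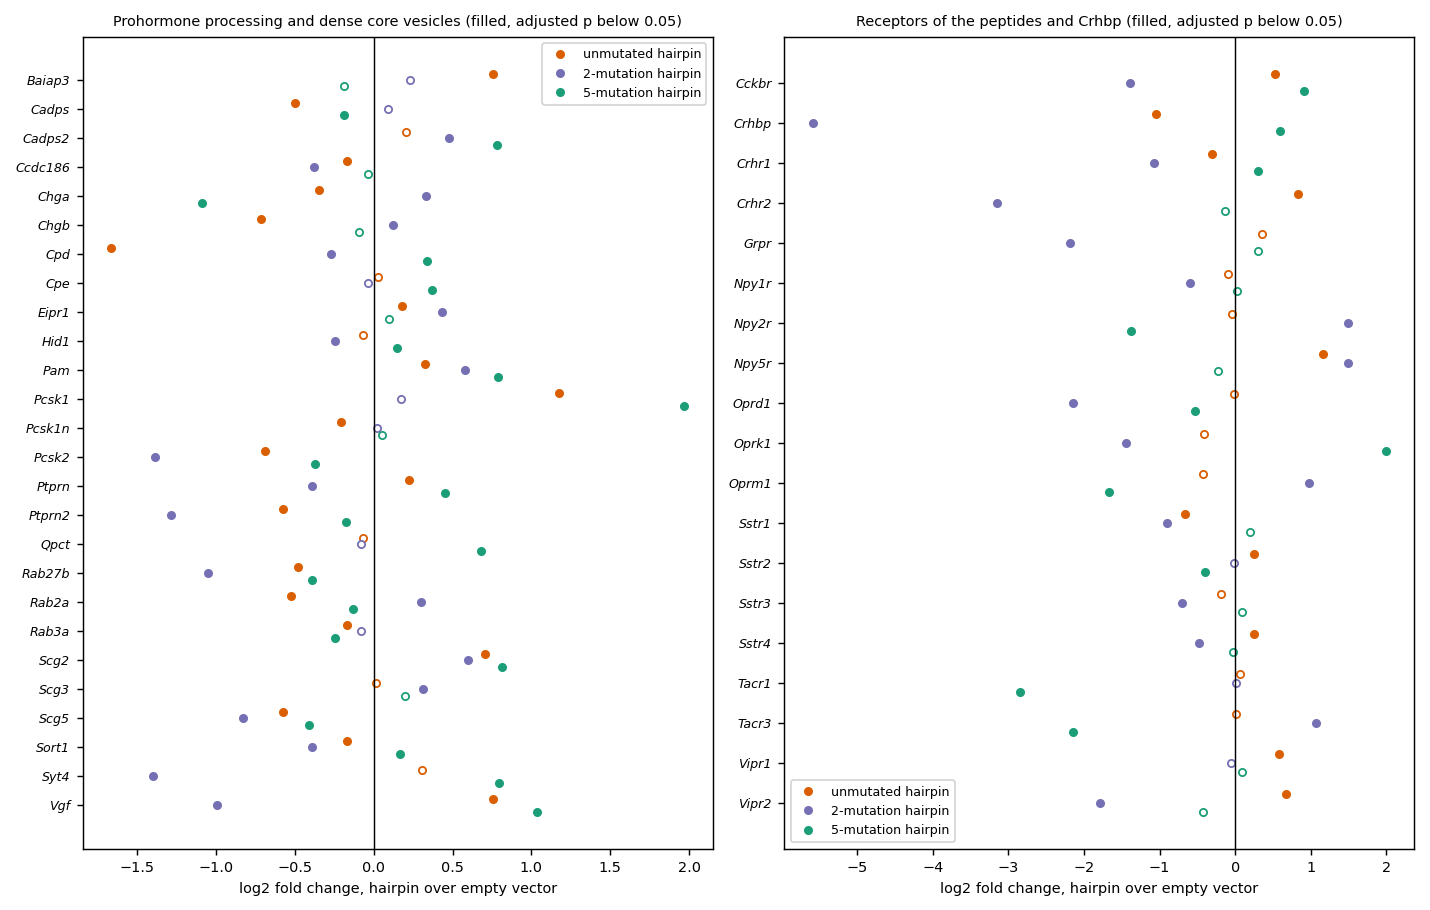
Log2 fold change against the empty vector of the 26 genes of prohormone processing and dense core vesicles (left) and of 19 tested genes for receptors, Crhbp included (right), for the 3 hairpins, with filled points called at an adjusted p below 0.05. Pcsk2 and Scg5 lie left of 0 and Pam and Scg2 right of 0 with all 3 hairpins. Crhbp lies at −5.58 with the 2-mutation hairpin, where it had 12 counts in the group.

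Among 23 listed genes for receptors of these peptides and the binding protein of corticotropin-releasing hormone, 19 were tested. With the unmutated hairpin 7 were higher and 3 lower, with the 2-mutation hairpin 4 higher and 12 lower and with the 5-mutation hairpin 4 higher and 6 lower, beside 40.3%, 63.3% and 54.9% of all genes called in either direction, and the median log2 fold changes were 0.01, −0.70 and −0.03. The share of receptor genes called with the 5-mutation hairpin was near that of all genes. For somatostatin, the receptor gene Sstr1 was lower with the unmutated (−0.67) and 2-mutation (−0.91) hairpins. Sstr2 (0.25) and Sstr4 (0.25), named after their values were seen, were higher with the unmutated hairpin. Sstr2 was lower with the 5-mutation (−0.40) and Sstr4 with the 2-mutation hairpin (−0.48). For neuropeptide Y, Npy5r was higher with the unmutated (1.16) and 2-mutation (1.49) hairpins. Npy2r was higher with the 2-mutation (1.49) and lower with the 5-mutation hairpin (−1.38). Vipr1, a receptor gene for vasoactive intestinal peptide, was higher with the unmutated hairpin (0.58). The delta opioid receptor gene Oprd1 was lower with the 2-mutation (−2.15) and 5-mutation (−0.54) hairpins. The tachykinin receptor genes Tacr1 (−2.84) and Tacr3 (−2.14) were lower with the 5-mutation hairpin, where Tac1 itself was higher. Tacr3 was higher with the 2-mutation hairpin (1.06). Crhbp, whose protein holds corticotropin-releasing hormone away from its receptors, and the receptor gene Crhr2 were lower with the 2-mutation hairpin (−5.58 and −3.16), where Crh itself was lower. They had 12 and 39 counts in the 2-mutation group, against 521 and 312 with the empty vector, so their 2-mutation levels are loosely set. Crhbp was lower also with the unmutated (−1.05) and higher with the 5-mutation hairpin (0.59), and Crhr2 was higher with the unmutated hairpin (0.83).

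Of 41 other genes listed as peptide genes, 18 passed the filter on low counts, 1 of which (Ecel1) encodes a peptidase and is included in the counts and medians. The counts were 6 higher and 3 lower with the unmutated, 2 higher and 10 lower with the 2-mutation and 6 higher and 6 lower with the 5-mutation hairpin, with medians of 0.08, −0.87 and 0.23. Among all genes tested the shares called were 40.3%, 63.3% and 54.9%, with medians of 0.01, −0.01 and 0.03. For the 2-mutation hairpin the share of this list called was near that of all genes. The 2-mutation count of 2 higher moved to 4 or 5 without any one of unmutated replicates 1, 3 and 4, 5-mutation replicates 2, 3 and 4, 2-mutation replicate 1 or empty-vector replicate 1, and to 1 without 2-mutation replicate 2 or without replicate 2 of every group. With the unmutated hairpin the nociceptin precursor gene Pnoc (−1.17) and the neurokinin B precursor gene Tac2 (−1.44) were lower and the neurotensin gene Nts (1.38) higher. Nts was lower with the 2-mutation (−1.20) and Pnoc higher with the 5-mutation hairpin (0.43). With the 2-mutation hairpin Nppc, the precursor of C-type natriuretic peptide (−3.28), Ecel1 (−2.29) and the apelin gene Apln (−1.82) were lower. Nppc was higher with the 5-mutation hairpin (0.71). The 5-mutation hairpin had Apln (−2.93), Cartpt, a precursor of feeding-related peptides (−3.42), and Tac2 (−2.08) lower. Cartpt was as low with the 2-mutation hairpin (−3.44) and higher with the unmutated hairpin (1.23). Tac2 was lower also with the 2-mutation hairpin (−0.68).

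Of 16 tested transcription factor genes of the interneuron lineage, 10 were lower and none higher with the unmutated, 7 lower and 4 higher with the 2-mutation and 14 lower and none higher with the 5-mutation hairpin, with medians of −0.81, −0.23 and −1.27. Over all genes tested 40.3%, 63.3% and 54.9% were called, with medians of 0.01, −0.01 and 0.03. The share of this list called with the 2-mutation hairpin was near that of all genes. Lhx6, a factor that interneurons of the somatostatin class need, was lower with the unmutated (−1.69) and 5-mutation (−1.5) hairpins and did not pass with the 2-mutation hairpin (0.24, adjusted p = 0.0545). The unmutated hairpin was the 1 of the 3 with which both Sst and Lhx6 were called lower. Satb1 (−0.99, −1.20 and −0.32) and Sox6 (−1.12, −0.80 and −1.50) were lower with the unmutated, 2-mutation and 5-mutation hairpins. Npas1 was higher with the 2-mutation (0.89) and lower with the 5-mutation hairpin (−2.22).

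Of 18 genes of the CREB pathway and of activity-regulated factors, 6 were higher and 1 lower with the unmutated, 4 higher and 8 lower with the 2-mutation and 14 higher and 3 lower with the 5-mutation hairpin, with medians of 0.30, −0.11 and 0.64. Of all genes 40.3%, 63.3% and 54.9% were called, and the shares of this list called with the unmutated and 2-mutation hairpins were near those. The count of 1 lower became 2 without empty-vector replicate 1, unmutated replicate 2, 5-mutation replicate 2 or replicate 2 of every group. Camk4, a kinase gene whose product activates CREB, was lower with every hairpin (−0.60, −1.25 and −0.17 with the unmutated, 2-mutation and 5-mutation hairpins). Crtc3, a CREB coactivator gene (0.48, 0.51 and 0.32 in that order), and the activity-regulated factor gene Egr1 (0.91, 0.43 and 0.63) were higher with every hairpin. Crtc1, another coactivator gene (−0.59), and the phosphodiesterase gene Pde10a (−0.67) were lower with the 2-mutation hairpin. Crtc1 was lower also with the 5-mutation hairpin (−0.23). With the 5-mutation hairpin Pde10a (0.65), Sik1, a kinase gene that CREB induces (1.29), and Crem, a relative of CREB (1.25), were higher. Sik1 was higher also with the unmutated (0.28) and 2-mutation (1.19) hairpins, and Crem was lower with the 2-mutation hairpin (−0.50). In the same 3 comparisons, the 5 peptide genes with the core in their promoter window divided. Sst, Tac1, Cck and Cort were lower with the unmutated hairpin. With the 2-mutation hairpin Sst, Tac1 and Cort were lower and Cck higher, and with the 5-mutation hairpin Tac1 and Cort were higher and Cck lower. Vip did not pass in the fit without the replicate numbers. Penk, Crh and Grp had no window to search, and the part of the core in these levels was not tested.

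For each peptide gene the genes with the most similar levels over the 16 libraries were sought among 10719 protein-coding genes of sufficient level, as a description, since the libraries share their groups. The closest was Commd10 for Grp (Pearson r = 0.996), Col26a1 for Cort (0.993), Pak1 for Cck (0.98), Slc4a10 for Sst (0.979), Ano4 for Pdyn (0.966), Magi2 for Tac1 (0.951), Cemip for Npy (0.926), Nhlrc3 for Crh (0.921), Zmym6 for Vip (0.895) and Fam184a for Penk (0.883). Over deviations from the group means, which leave the hairpins out, the closest were Rbms3 for Vip (0.945), Pcp4 for Penk (0.914), Khdrbs2 for Pdyn (0.898), Osgep for Cck (0.894), Adck5 for Npy (0.882), Hnrnpu for Sst (0.877), Znhit2 for Grp (0.87), Tpd52l1 for Crh (0.856), Ephx4 for Cort (0.837) and Shb for Tac1 (0.777). No gene was the closest by both measures for any of the 10.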

How the data were processed

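Primary mouse forebrain neurons were transduced with lentivirus in 4 groups of 4 libraries. Libraries were made from ribosomal RNA-depleted RNA with a directional dUTP kit, per the labels' protocols. The deposited values are whole-number read counts per gene. Per the submitters' processing notes, the named tools are STAR 2.7.2b, featureCounts, edgeR, cutadapt 1.15, Trim Galore 0.6.0 and bcl2fastq 2.20.0.422, and the named build is GRCm38.p6; the strand setting and the annotation release are not given in the sources used here. The 10 genes, the lists and the tests were chosen with earlier results of these data known.

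Groups came from the labels. Of the Ensembl IDs, 55154 matched GENCODE vM21 without the version (54587 with it) and 181 did not; symbols, places and exon lengths come from that match. Total counts per library ran from 33795369 to 49824569, and Crh and the 2-mutation Grp and Cort counts are the least precise. Within a group, pairs of libraries had a chi-square of 3.46 to 24.2 per degree of freedom, above counting noise, so none was counted as a repeat deposit of another.

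Genes were filtered with filterByExpr and scaled with TMM, and all 16 libraries were fitted together with edgeR's robust quasi-likelihood test (edgeR 4.0.16, limma 3.58.1, R 4.3.3) with Benjamini-Hochberg adjustment over 19479 genes. The procedure was tested on simulated data. Log2 levels used a prior count of 2, and levels relative to Gad1, Gad2 and Slc32a1 were compared with exact permutation tests (Python 3.11.15, numpy 2.4.6, pandas 2.3.3, scipy 1.17.1; figures with matplotlib 3.10.9). Named are all 10 genes, up to 3 called genes with the smallest p in each list and comparison, the most similar genes among those averaging 2 or more in log2 CPM, Gad1, Gad2, Slc32a1 and Rtn4. Some genes that this rule names are not reported here. Alternatives were other scaling (RLE, upper quartile, library totals), no filter, DESeq2 1.42.0, no robust dispersion, only the 2 groups compared, protein-coding genes, leaving out 2 loci that collect ribosomal RNA reads, a replicate block and leaving out each library. Outside the replicate block, the replicate numbers were not treated as pairs.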

Additional observations from a re-analysis of the deposited data

Results flagged for a closer look

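In each of 52 groups of 4 libraries (13 genes in 4 groups), the gap of the highest or lowest library to the nearest other was divided by the range of the group. Dixon's critical value for 4 values at the 0.05 level is passed by chance in about 1 of 20 groups, and 8 groups passed it. Replicate 2 is the library concerned in 5 of the 8.

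Grp with the 5-mutation hairpin had a low replicate 2, at 8.61 CPM with the others at 13.4 to 14 CPM (ratio 0.890). Penk had a high replicate 2 with the 5-mutation hairpin, at 20.6 CPM beside 11.1 to 11.6 CPM (0.952), and with the empty vector, at 20.5 CPM beside 11 to 11.8 CPM (0.915). Pdyn with the unmutated hairpin had a high replicate 3, at 3.89 CPM beside 2.88 to 3.04 CPM (0.844). Tac1 with the 2-mutation hairpin had a high replicate 4, at 5.61 CPM beside 4.14 to 4.25 CPM (0.928). Cck with the empty vector had a high replicate 2, at 134.9 CPM beside 111.4 to 115.1 CPM (0.842). Cort with the empty vector had a high replicate 1, at 4.59 CPM beside 2.45 to 2.78 CPM (0.844). Slc32a1 with the unmutated hairpin had a high replicate 2, at 50.5 CPM beside 28.7 to 31.6 CPM (0.870).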

How the results depend on the processing

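Over 60 values (10 genes in 6 comparisons) and 27 alternatives, 1513 of 1620 kept their direction and side of the threshold, 35 lost a call, 46 gained one and 26 changed direction, none of the last with a call in either. The changes of direction were in Penk and Vip values near 0. Penk with the 5-mutation hairpin against the empty vector was −0.025 with DESeq2, −0.0084 with RLE factors, −0.00093 with the replicate block, −0.0062 without the ribosomal loci Gm26917 and Gm42418 and −0.013 without replicate 2 of every group. Penk with the 2-mutation hairpin against the empty vector was −0.0069 with library totals, −0.012 with protein-coding genes and −0.087 without replicate 2 of every group, and between the 2-mutation and 5-mutation hairpins it was −0.10, −0.017 and −0.075 in these settings and −0.013 with upper quartile factors. Leaving out each library, Penk ran from −0.34 to 0.30 (2-mutation against empty vector), −0.27 to 0.27 (5-mutation against empty vector) and −0.35 to 0.31 (2-mutation against 5-mutation), and Vip from −0.40 to 0.15 (unmutated against empty vector). Npy with the unmutated hairpin lost its call with library totals (adjusted p = 0.0790), only the 2 groups (0.0679) and upper quartile factors (0.0518), and Penk between the unmutated and 2-mutation hairpins with only the 2 groups (0.0593). Without the filter on low counts, and with the replicate block, the members called higher with the 2-mutation hairpin became 2, those lower with the unmutated than the 2-mutation hairpin 2 and those higher with the unmutated than the 5-mutation hairpin 4; the cause was not tested. The block, which uses the replicate numbers as pairs, added calls for Vip in 4 comparisons (adjusted p 1.79e-06 to 0.00478), for Grp with the unmutated hairpin (0.0249) and for Npy between the unmutated and 5-mutation hairpins (0.0102). It moved striatal markers higher and lower with the unmutated hairpin to 3 and 4, striatal markers higher with the 2-mutation hairpin to 5, interneuron factors higher with the 2-mutation hairpin to 7 and with the unmutated hairpin to 1, and CREB genes lower with the unmutated hairpin to 2. Same-numbered libraries of different groups had correlated deviations of −0.0215 to 0.272 and others of −0.349 to 0.296, and 15 of 16 libraries correlated best with their own number. Leaving out each library, members called higher and lower ran from 0 to 2 and 4 to 6 (unmutated against empty vector), 1 to 1 and 7 to 7 (2-mutation), 2 to 4 and 3 to 4 (5-mutation), 6 to 7 and 1 to 1 (unmutated against 2-mutation), 1 to 4 and 4 to 5 (unmutated against 5-mutation) and 2 to 2 and 7 to 7 (2-mutation against 5-mutation), and all genes called ran from 7011 to 8384, 11733 to 12754, 10129 to 10889, 11706 to 12606, 10124 to 10854 and 12342 to 13164 in that order. Relative to Gad1 alone, Sst with the unmutated hairpin was −0.056, Npy −0.055 (2-mutation) and −0.33 (5-mutation hairpin), Vip −0.46 and Pdyn −0.20 with the 5-mutation hairpin; relative to Slc32a1 alone, Npy was −1.44, Tac1 −0.23 and Crh −1.32 with the 2-mutation hairpin; with a prior count of 0.5 Crh was −0.58 there. With 4 pairs the block cannot give a p below 0.125 for these relative levels. Depth limits Crh, which has 14 counts in the 2-mutation group.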
